A study of Mus musculus with 8 samples.

Results

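The 56 genes described here are a chosen set of S phase and DNA replication genes, taken from the count table by gene symbol. All 56 symbols occurred among its 24259 rows, and all 56 passed the filter on low counts that kept 12744 genes for testing. RNA was measured in NP-binding, IgD-low, B220+ B cells, which are antigen-specific B cells before entry into the germinal center, sorted from C57BL/6 lymph nodes on day 3 after immunization with NP-OVA plus LPS in alum. The recipients were CD45.1 Sap-/- mice, whose own T cells lack the adaptor SAP and give poor help to B cells. OT-II T cells, whose receptor recognises ovalbumin, were transferred into all of them. HET recipients were given OT-II T cells of the genotype CD4-Cre × Bcl6 fl/+, in which the recombinase, driven by the T cell promoter CD4, deletes the floxed copy of Bcl6 and leaves the other intact. WT recipients were given OT-II T cells with CD4-Cre and no floxed allele. Ages were not given. Each group had 4 libraries of about 200 cells, and the study's methods describe a pool of recipients per group from which the repeats were sorted. The p-values therefore measure only the spread between sorted repeats, and the effect of the T cell genotype cannot be told apart from a difference between the pools. Because Bcl6 was deleted only in the helper T cells, no deleted gene can be read in these B cell libraries to check the group names.

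Before a cell copies its DNA, the origin recognition complex, CDC6 and CDT1 load the MCM2 to MCM7 helicase onto origins, and geminin keeps origins from being loaded again. CDC45 and the GINS complex then switch the helicase on, primase and the polymerases copy the strands behind it, and the sliding clamp PCNA, placed by the RFC loader, holds the polymerases on DNA. Many of these genes are targets of the E2F transcription factors and are transcribed as cells enter S phase. B cells that have met antigen and T cell help divide fast before and within the germinal center.

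The 8 libraries held 6652386 to 12559189 counts, so that 3 counts corresponded to 0.241 to 0.455 CPM (read counts of a gene per 1000000 counts of the library, after TMM scaling). Totals, genes detected and shares of mitochondrial and immunoglobulin counts did not separate the groups (adjusted p = 0.648 to 0.971, two-sided exact permutation test over 70 arrangements, whose smallest p is 0.0286). HET replicate 1 was the deepest library and stood apart in its immunoglobulin share, 4.46% of counts against 2.07% to 2.55% in the other 7. WT replicate 4 stood apart in genes of mitosis, which are described with the comparison lists. The S phase score, the counts of members and the lists of other cell cycle genes are given also without these libraries. The members themselves had between 8 and 3516 counts in a library, and only Orc1 went below 10.

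The promoters of the members were examined for letters to which E2F factors are known to bind. RefSeq windows on GRCm38.p6, running from 250 bases before to 50 bases after the start site, were held for 47 of the 56 members (53 windows). The E2F letters searched were TTTCGCGC, TTTGGCGC, TTTCCCGC and TTTGCCGC on either strand. They occurred in 19 of 53 member windows (35.8%), against 4.11% of the windows of all tested genes and 2.26% of all 32851 windows. CCAAT, a common promoter box, was in 60.4% of the member windows, 38.4% of those of tested genes and 37.4% of all. TTTGAA, the letters of the CHR element found in many mitotic promoters, was in 15.1%, 12.9% and 17.9% of these windows. The windows of 5 members are printed 5′ to 3′ along the gene, with E2F letters in capitals. Pclaf (chr9:65890073-65890372, + strand), Clspn (chr4:126556730-126557029, + strand) and Mcm3 (chr1:20820263-20820562, − strand) are shown as members with a match and an unadjusted p under 0.05. Pold1, the other such member, is not printed. Dut (chr2:125247265-125247564, + strand) is the member with the lowest p among those without a match, but its RefSeq window begins 75 bases after the gene start in the GENCODE annotation and holds none of the sequence before that start. Pola1 (chrX:93632106-93632405, − strand) has a match and the fold change nearest to 0.
Pclaf: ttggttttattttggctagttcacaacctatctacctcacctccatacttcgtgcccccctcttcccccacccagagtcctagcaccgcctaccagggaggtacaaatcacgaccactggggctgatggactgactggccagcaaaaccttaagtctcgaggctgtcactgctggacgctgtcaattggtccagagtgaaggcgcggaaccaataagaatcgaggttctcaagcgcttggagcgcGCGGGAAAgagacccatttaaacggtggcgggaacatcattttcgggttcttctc
Clspn: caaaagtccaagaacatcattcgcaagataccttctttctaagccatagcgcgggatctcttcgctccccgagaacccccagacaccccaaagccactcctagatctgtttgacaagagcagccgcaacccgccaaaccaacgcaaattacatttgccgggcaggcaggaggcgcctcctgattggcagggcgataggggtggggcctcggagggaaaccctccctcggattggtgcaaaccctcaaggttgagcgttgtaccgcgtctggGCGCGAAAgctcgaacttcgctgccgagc
Mcm3: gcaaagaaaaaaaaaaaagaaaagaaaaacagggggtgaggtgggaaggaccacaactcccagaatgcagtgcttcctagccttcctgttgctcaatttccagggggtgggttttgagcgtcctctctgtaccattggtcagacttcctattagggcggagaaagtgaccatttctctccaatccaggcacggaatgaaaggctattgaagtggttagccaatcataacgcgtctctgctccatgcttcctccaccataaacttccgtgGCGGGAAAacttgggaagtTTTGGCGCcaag
Dut: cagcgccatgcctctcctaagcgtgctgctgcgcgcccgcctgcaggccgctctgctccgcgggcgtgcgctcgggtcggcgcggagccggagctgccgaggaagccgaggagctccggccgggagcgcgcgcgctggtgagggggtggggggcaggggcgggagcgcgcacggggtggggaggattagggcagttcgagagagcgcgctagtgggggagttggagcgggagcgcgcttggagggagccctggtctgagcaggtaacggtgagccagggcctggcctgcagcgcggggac
Pola1: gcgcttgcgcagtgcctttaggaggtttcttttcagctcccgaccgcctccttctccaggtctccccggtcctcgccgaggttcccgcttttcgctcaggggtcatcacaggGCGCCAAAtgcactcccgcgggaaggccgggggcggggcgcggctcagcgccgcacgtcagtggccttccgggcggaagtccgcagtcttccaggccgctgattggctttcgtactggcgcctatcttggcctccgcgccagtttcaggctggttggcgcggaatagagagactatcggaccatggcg
The match lay 5 bases before the RefSeq start site in Pclaf, 21 bases after it in Clspn, 19 and 38 bases after it in Mcm3 and 138 bases before it in Pola1. That start lies 86 bases (Pclaf) and 45 bases (Clspn) after the gene start in the GENCODE annotation, so both matches lie inside those annotated genes. The 19 members with a match had a median log2 fold change (HET over WT) of 0.30, and the 28 members with a window and no match had 0.39. By edgeR, 4 of the 19 and 7 of the 28 were higher in HET at an unadjusted p under 0.05 (3.34% of tested genes). A match of letters is a description of the window and shows no binding.

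The comparison of HET with WT asked whether these genes differed in B cells whose helper T cells had lost a Bcl6 copy. Most S phase genes had higher mean counts in the HET libraries, by modest amounts, and no member passed the test across all genes. Of the 56 members, 49 (87.5%) had a positive log2 fold change, against 49.9% of all tested genes, and 7 had a negative one. Their median log2 fold change was 0.33, against −0.00 over all tested genes. The range ran from −0.40 (Pole2) to 1.21 (Mcm10). Because these are bulk libraries, a larger share of cells in S phase and more RNA per cell cannot be told apart.

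By edgeR's quasi-likelihood test with Benjamini-Hochberg adjustment, 0 of 56 members had an adjusted p under 0.05, and the lowest was 0.146 (Pclaf). The same threshold called 0.0235% of all tested genes, 3 in number. At an unadjusted p under 0.05, 14 members (25%) were higher in HET and 0 were lower, while among all tested genes 3.34% were higher and 3.88% lower. The 14 were Pclaf, Dut, Gmnn, Rrm2, Clspn, Chek1, Tipin, Rfc4, Mcm4, Mcm3, Pold2, Pcna, Pold1 and Tyms. DESeq2, the tool of the study, called 4 members higher in HET, Pclaf, Dut, Rrm2 and Gmnn, where it called 0.247% of all genes in that direction. In 6 members every HET library lay above every WT library (10.7%, against 1.99% of tested genes), and in 0 the reverse held (2.62% of tested genes). These 6 were Pclaf, Dut, Gmnn, Clspn, Pold2 and Orc1. HET was at least 1.5-fold higher in 13 members (23.2%, against 8.56% of tested genes) and at least 2-fold higher in 6 (10.7%, against 3.37%), which include faint genes such as Orc1 and Mcm10.

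**Figure D1:**
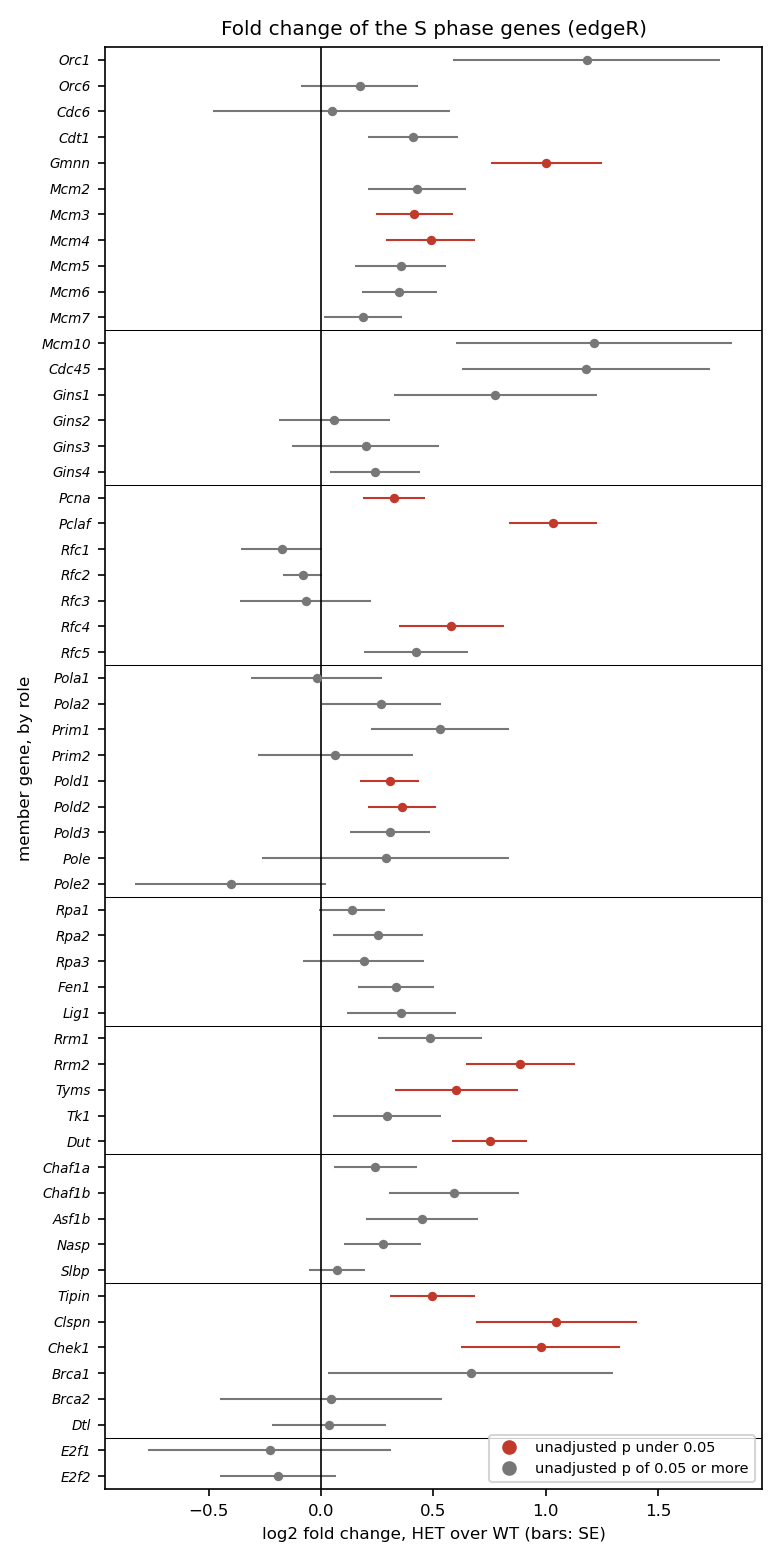
edgeR log2 fold change, HET over WT, of each of the 56 members (points) with its standard error (bars), grouped by role from origin licensing at the top to the E2F factors at the bottom. Points in red have an unadjusted p under 0.05. All 14 lie to the right of 0, and 49 of the 56 points do.

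The size of the group difference was set beside the spread between libraries with a score, the mean over the 56 members of log2 CPM after each gene was centred on its mean over the 8 libraries. The score was −0.13, 0.22, 0.33 and 0.40 in HET replicates 1 to 4 and 0.04, −0.18, −0.25 and −0.42 in WT replicates 1 to 4. HET replicates 2, 3 and 4 lay above all WT libraries, and HET replicate 1 lay below WT replicate 1, so the groups overlapped. Averaged over 4 libraries, it was 0.20 ± 0.23 (SD) for HET and −0.20 ± 0.19 (SD) for WT, a difference of 0.41. Without HET replicate 1 the difference was 0.52, and without WT replicate 4 it was 0.34. The summed level of the 56 members was 3195, 4033, 4080 and 4468 CPM in HET and 3510, 3209, 2976 and 2808 CPM in WT. HET replicate 1 thus had a lower sum than WT replicates 1 and 2, and the other HET libraries lay above every WT library.

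The libraries of a group differed among themselves in the same genes. HET replicate 1 was the lowest HET library for 38 of 56 members (67.9%), where it was the lowest for 25.5% of all tested genes. HET replicate 4 was the highest of all 8 libraries for 25 members (44.6%, against 13.5% of tested genes). In WT, replicate 1 was the highest WT library for 27 members (48.2%, against 24.5%) and replicate 4 the lowest for 26 (46.4%, against 25.2%). HET replicate 1 and WT replicate 1 were the highest of all 8 libraries for 0 members. Without HET replicate 1, 22 members had an unadjusted p under 0.05 in favour of HET (4.0% of tested genes in that comparison) and 20 did not overlap (4.58%). Without HET replicate 4 the first count was 7 (2.81% of tested genes). The coefficient of variation within a group had a median over members of 22.3% in HET and 29.6% in WT.

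**Figure D2:**
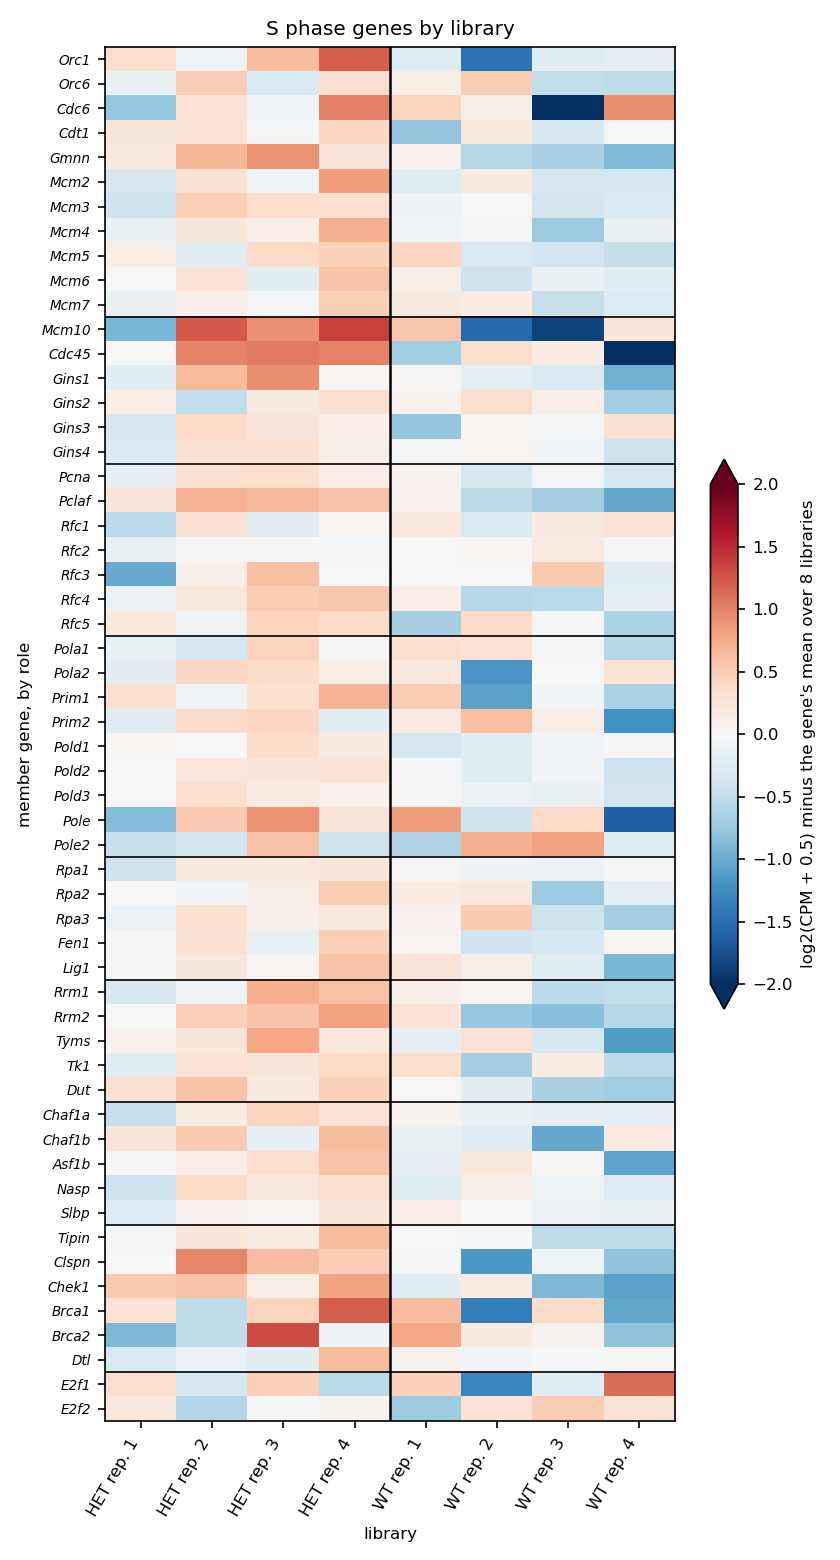
log2(CPM + 0.5) of each of the 56 members (rows, grouped by role) in the 8 libraries (columns), shown as the difference from the gene's own mean, with colours limited at −2 and 2. Red is above the mean, and HET replicates 2 to 4 are mostly red, WT replicates 3 and 4 mostly blue, with HET replicate 1 and WT replicate 1 in between.

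Origin licensing genes load the helicase. All 11 had a positive log2 fold change, with a median of 0.41 and a range of 0.05 (Cdc6) to 1.18 (Orc1), and 3 (Gmnn, Mcm3 and Mcm4) were under an unadjusted p of 0.05. Gmnn encodes geminin, the inhibitor of CDT1 that prevents a second round of licensing (chr13:24751845-24761923, GRCm38). Its level was 41.5, 57.3, 67.4 and 42.9 CPM in HET and 38.1, 24.1, 22.7 and 19.3 CPM in WT. Every HET library was above every WT library, although WT replicate 1 came close to HET replicate 1. The means were 52.3 ± 12.4 (SD, n = 4) and 26.1 ± 8.28 CPM, a log2 fold change of 1.0 with a standard error of 0.25 (edgeR adjusted p = 0.280, DESeq2 adjusted p = 0.0209). Cdt1, whose protein geminin binds, had a log2 fold change of 0.41 ± 0.20 (SE, unadjusted p from edgeR's quasi-likelihood test = 0.0605).

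Mcm4, a subunit of the helicase ring, measured 74.2, 95.6, 90.2 and 136 CPM in HET and 77.9, 80.7, 49.3 and 73.9 CPM in WT. HET replicate 1 lay within the WT range and the others above it, and the log2 fold change was 0.49 with a standard error of 0.20 (edgeR adjusted p = 0.616). Without HET replicate 4 it was 0.30. The 6 subunits Mcm2 to Mcm7 had log2 fold changes between 0.19 (Mcm7) and 0.49 (Mcm4), with a median of 0.38. Only Mcm3 and Mcm4 among them had an unadjusted p under 0.05. Orc1, the largest subunit of the origin recognition complex, was among the faintest members and is named because of its groups, after its values were seen. It measured 4.18, 2.98, 5.09 and 7.89 CPM in HET and 2.66, 0.813, 2.65 and 2.71 CPM in WT. The groups did not overlap, but HET replicate 2 was within 0.5 CPM of WT replicate 4. The edgeR adjusted p of Orc1 was 0.714.

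The helicase activators Mcm10, Cdc45 and Gins1 to Gins4 all had positive log2 fold changes, with a median of 0.51. None of the 6 had an unadjusted p under 0.05. Cdc45 binds the MCM ring to form the active helicase. It measured 18.8, 38.3, 39.3 and 38.1 CPM in HET and 11.7, 24.4, 21.1 and 2.19 CPM in WT. HET replicates 2 to 4 were close to each other and above WT, whereas HET replicate 1 fell within the WT range and WT replicate 4 was far below the rest. The log2 fold change was 1.18 with a standard error of 0.55 (edgeR adjusted p = 0.706). Mcm10, which helps the helicase start, measured 4.10, 19.7, 15.7 and 21.8 CPM in HET and 12.2, 2.44, 1.89 and 9.71 CPM in WT. HET replicate 1 was again low and below WT replicates 1 and 4, and the adjusted p was 0.716 by edgeR. The 4 GINS subunits, which work as a single complex, had log2 fold changes of 0.77 (Gins1), 0.06 (Gins2), 0.20 (Gins3) and 0.24 (Gins4).

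Among the clamp and its loader, log2 fold changes of both signs occurred. Pclaf encodes a small PCNA-binding protein that is abundant in dividing cells (chr9:65890237-65903266, GRCm38). It measured 165, 224, 218 and 207 CPM in HET and 147, 96.7, 85.2 and 68.3 CPM in WT. All HET libraries were above all WT libraries, with HET replicate 1 and WT replicate 1 nearest to each other. The means of 203 ± 26.8 (SD, n = 4) and 99.2 ± 33.8 CPM gave a log2 fold change of 1.03 with a standard error of 0.20. This was the member with the lowest p by edgeR's quasi-likelihood test across all genes (adjusted p = 0.146), and DESeq2 gave an adjusted p of 9.74e-05. Pcna itself had means of 222 ± 34.9 and 177 ± 26.5 CPM (SD, n = 4), with a log2 fold change of 0.32 ± 0.14 (SE).

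The 5 subunits of the clamp loader did not share a sign. Rfc4 measured 28.9, 36.1, 44.5 and 46.3 CPM in HET and 34.3, 21.0, 21.5 and 27.1 CPM in WT. WT replicate 1 lay above HET replicate 1, so the groups overlapped, and the log2 fold change was 0.58 with a standard error of 0.24 (edgeR adjusted p = 0.616). Rfc5 had a log2 fold change of 0.42 ± 0.23 (SE). Rfc1, Rfc2 and Rfc3 had −0.18 ± 0.18, −0.08 ± 0.09 and −0.07 ± 0.29 (SE). Rfc2 was the most even of these, at 283 to 316 CPM in HET and 305 to 349 CPM in WT. In the annotation, exons of Rfc4 overlap those of Eif4a2, exons of Rfc2 those of Lat2 and exons of Rfc5 those of Wsb2, each on the opposite strand, and without a stated strand setting the reads of such a pair cannot be told apart.

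Of the 9 polymerase and primase genes, 7 had positive log2 fold changes, and the median was 0.29. The catalytic and second subunits of polymerase delta, which copies the lagging strand, had the lowest p-values. Pold2 measured 61.2, 70.7, 73.3 and 74.2 CPM in HET and 60.6, 51.8, 58.9 and 46.1 CPM in WT. The groups did not overlap, but HET replicate 1 and WT replicate 1 differed by less than 1 CPM. The log2 fold change was 0.36 with a standard error of 0.15 (edgeR adjusted p = 0.625). Pold1 measured 104, 102, 131 and 116 CPM in HET and 79.2, 87.6, 97.1 and 103 CPM in WT, and only WT replicate 4 reached the HET range. Its log2 fold change was 0.30 with a standard error of 0.13 (edgeR adjusted p = 0.642).

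Pole2, a subunit of the leading-strand polymerase epsilon, had the most negative fold change of the set. It measured 6.67, 7.12, 14.4 and 6.82 CPM in HET and 5.99, 15.7, 16.7 and 7.83 CPM in WT. Each group had high and low libraries and the ranges overlapped almost fully. The log2 fold change was −0.40 with a standard error of 0.43 (edgeR adjusted p = 0.889), and it ran from −0.74 without HET replicate 3 to −0.17 without WT replicate 3. Pola1, the catalytic subunit of polymerase alpha, had means of 18.2 ± 4.55 and 18.4 ± 4.96 CPM (SD, n = 4). Its partners in the same complex had log2 fold changes of 0.27 (Pola2), 0.53 (Prim1) and 0.06 (Prim2), none with an unadjusted p under 0.05.

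The genes for binding single-stranded DNA and for joining Okazaki fragments, Rpa1 to Rpa3, Fen1 and Lig1, were higher on average in HET by small amounts, with log2 fold changes of 0.14 to 0.36 and none at an unadjusted p under 0.05. Fen1, the nuclease that trims the flaps of Okazaki fragments, measured 85.9, 105, 76.1 and 118 CPM in HET and 87.8, 64.2, 66.0 and 87.2 CPM in WT. Only HET replicates 2 and 4 were clear of the WT range (log2 fold change 0.33, edgeR adjusted p = 0.714). Lig1, the ligase that seals the fragments, measured 44.6, 53.8, 47.5 and 68.1 CPM in HET and 55.2, 49.1, 38.6 and 24.0 CPM in WT. Only HET replicate 4 exceeded all WT libraries, and the adjusted p was 0.801 by edgeR. The log2 fold change of Lig1, 0.36, became 0.165 without WT replicate 4. Exons of Fen1 and Lig1 also overlap genes on the opposite strand, Tmem258 and Zswim9.

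The nucleotide supply genes had the largest median of the role groups, 0.60, with all 5 positive and 3 (Dut, Rrm2 and Tyms) at an unadjusted p under 0.05. Dut, the dUTPase that keeps uracil out of DNA, measured 121, 144, 110.3 and 134 CPM in HET and 97.6, 83.7, 61.6 and 59.7 CPM in WT (chr2:125247190-125258608, GRCm38). All HET libraries were above all WT libraries, including HET replicate 1, which was not the lowest of its group here. The means of 127 ± 14.7 and 75.6 ± 18.2 CPM (SD, n = 4) gave a log2 fold change of 0.75 with a standard error of 0.17 (edgeR adjusted p = 0.233, DESeq2 adjusted p = 0.00726). Rrm2 encodes the regulated subunit of ribonucleotide reductase (chr12:24708241-24714146, GRCm38). It measured 120.3, 166, 177 and 207 CPM in HET and 145, 70.3, 66.8 and 80.8 CPM in WT. WT replicate 1 was above HET replicate 1, and otherwise the groups were well apart. The log2 fold change of Rrm2 was 0.89 with a standard error of 0.24 (edgeR adjusted p = 0.414, DESeq2 adjusted p = 0.0176). Rrm1, the other subunit of the enzyme, had 0.48 ± 0.23 (SE).

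**Figure D3:**
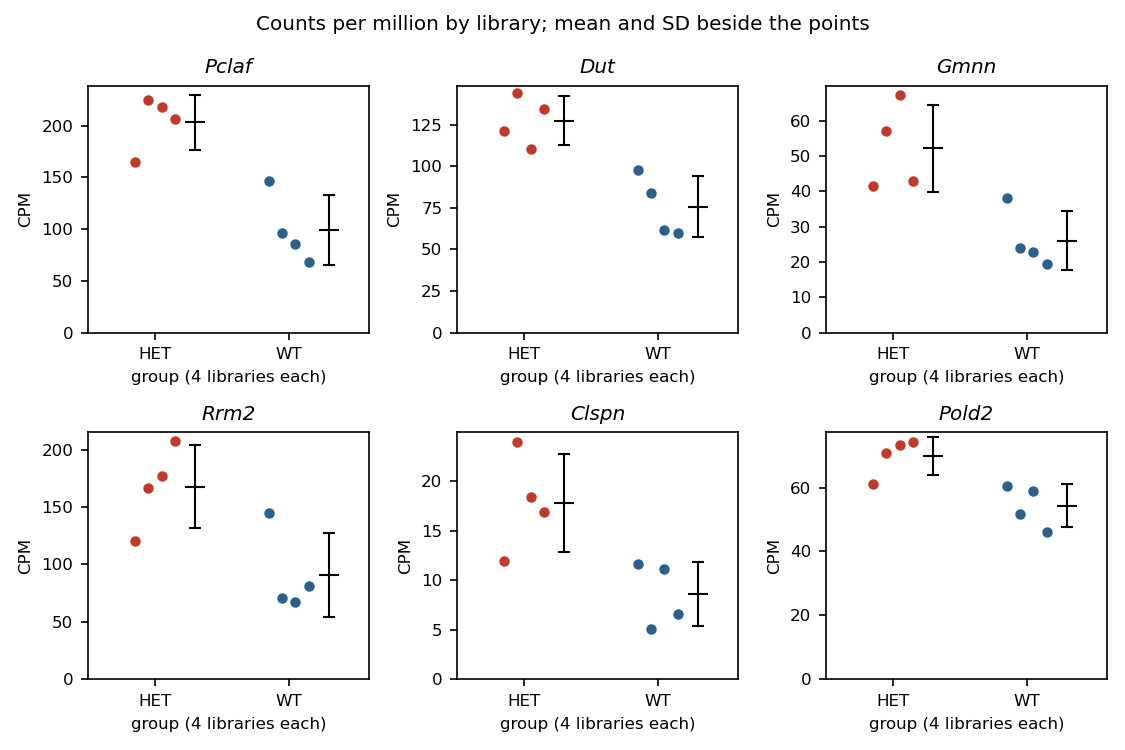
CPM of Pclaf, Dut, Gmnn, Rrm2, Clspn and Pold2 in each library, with replicates 1 to 4 from left to right in each group and the group mean with its SD (n = 4) beside the points. In 5 of the 6 genes every HET point is above every WT point, and in Rrm2 WT replicate 1 (145 CPM) lies above HET replicate 1 (120.3 CPM).

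Chromatin assembly genes, which package the copied DNA with histones, all had positive log2 fold changes, between 0.07 (Slbp) and 0.59 (Chaf1b). None of the 5 had an unadjusted p under 0.05. Chaf1b, a subunit of the assembly factor CAF-1, measured 26.2, 31.7, 19.5 and 33.8 CPM in HET and 19.96, 18.6, 10.5 and 24.6 CPM in WT. HET replicate 3 fell within the WT range and the other HET libraries were above it (edgeR adjusted p = 0.706). Asf1b, a histone chaperone, measured 42.9, 47.9, 55.3 and 65.5 CPM in HET and 38.9, 50.8, 44.4 and 20.8 CPM in WT. WT replicates 2 and 3 lay within the HET range, and the log2 fold change was 0.45 (edgeR adjusted p = 0.757). Without WT replicate 4 it was 0.24.

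Among the genes for fork protection, checkpoint and repair, the median log2 fold change was 0.58 and all 6 were positive. Clspn encodes claspin, which holds the checkpoint kinase at stalled forks. It measured 11.9, 24.0, 18.4 and 16.8 CPM in HET and 11.6, 5.08, 11.1 and 6.58 CPM in WT. The groups did not overlap, with HET replicate 1 and WT replicate 1 almost level, and the log2 fold change was 1.05 with a standard error of 0.36 (edgeR adjusted p = 0.569). Chek1, the kinase that claspin helps to activate, measured 17.0, 17.6, 12.7 and 20.8 CPM in HET and 9.98, 13.2, 6.06 and 5.32 CPM in WT. HET replicate 3 lay just below WT replicate 2, and the log2 fold change was 0.98 with a standard error of 0.35 (edgeR adjusted p = 0.579). Tipin, a fork protection protein, had a log2 fold change of 0.50 ± 0.19 (SE). Dtl, part of the ligase that destroys CDT1 in S phase, had 0.03 ± 0.25 (SE).

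The E2F factors themselves did not share the sign of most other members. E2f2 measured 47.7, 27.2, 40.6 and 43.4 CPM in HET and 24.9, 49.5, 58.4 and 49.0 CPM in WT. Its groups overlapped, with 3 of 4 WT libraries above every HET library and WT replicate 1 below all, and the log2 fold change was −0.19 with a standard error of 0.26 (edgeR adjusted p = 0.915). It ran from −0.40 without WT replicate 1 to −0.04 without WT replicate 3. E2f1 measured 7.07, 4.27, 7.79 and 3.64 CPM in HET and 7.70, 1.93, 4.67 and 12.4 CPM in WT. WT replicates 2 and 4 were the lowest and the highest of all 8 libraries. The log2 fold change was −0.23 with a standard error of 0.54 (edgeR adjusted p = 0.958), and without WT replicate 4 it was 0.26, so these libraries give no direction for E2f1.

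The levels of the members were set side by side as CPM per kilobase of exon. Pcna was the highest in both groups, at 92.5 ± 14.5 in HET and 73.9 ± 11.0 in WT (SD, n = 4). The order below it differed between the groups. In HET, Rrm2 (60.5 ± 13.0), Dut (52.9 ± 6.10) and Rfc2 (48.1 ± 2.26) came next and did not differ beyond their spread. In WT, Rfc2 (51.0 ± 3.07) had a higher mean than Rrm2 (32.7 ± 13.2), Fen1 (31.5 ± 5.34) and Dut (31.4 ± 7.57), and these last did not differ beyond their spread. Over all 8 libraries the lowest means were those of Orc1 (1.04), Brca2 (0.886), Pole (0.718) and Brca1 (0.516). The median over the members was 11.8 CPM per kilobase, against 5.50 over 12493 tested genes with an exon length. Subunits of a complex did not always have equal values by this measure. The 6 MCM subunits ranged from 14.6 (Mcm2) to 31.9 (Mcm3), a ratio of 2.18, and the 3 RPA subunits by a ratio of 1.43. The length used was that of all annotated exons of a gene together, which can exceed that of its transcripts. It was 6956 bases for Mcm2 and 3752 for Mcm3. The mean CPM of Mcm2 and Mcm3 were 117 and 137 in HET and 86.7 and 103 in WT. Such ratios and the order of the members thus depend partly on these lengths. The GINS subunits ranged from 3.97 (Gins1) to 30.6 (Gins4), a ratio of 7.71, and the RFC subunits from 11.1 (Rfc3) to 49.5 (Rfc2). Exons of 17 members overlap those of another gene, 15 of them on the opposite strand, and for these, Rfc2, Cdc45, Orc1, Pole2 and Mcm7 among them, the level is uncertain.

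**Figure D4:**
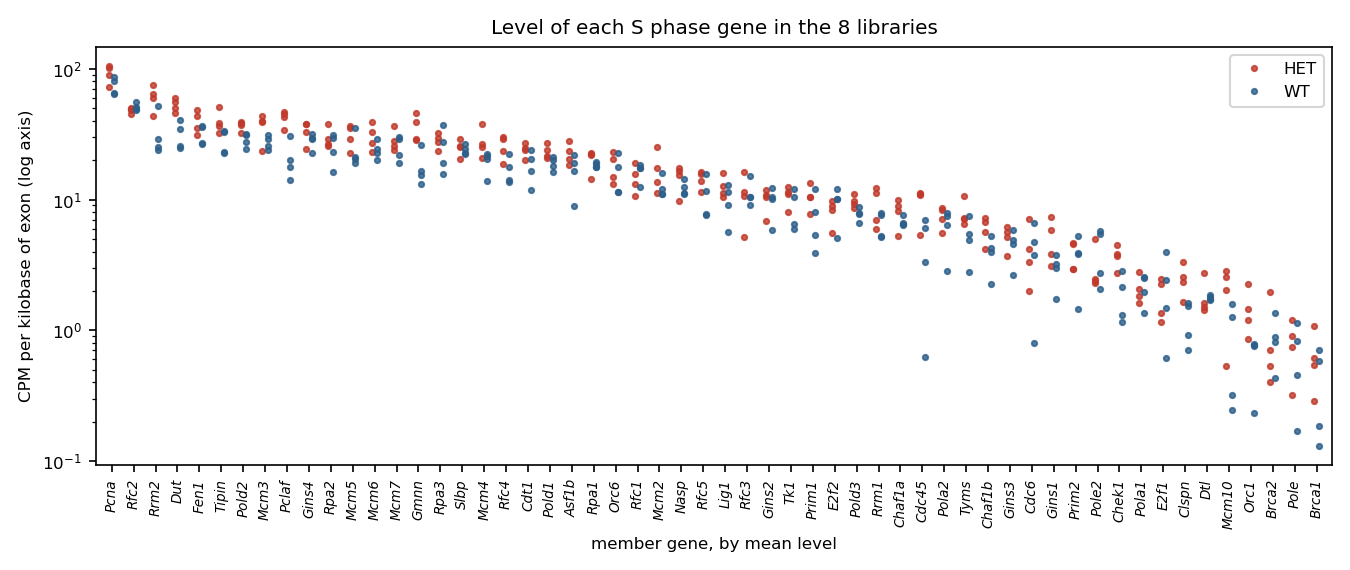
Level of each of the 56 members as CPM per kilobase of exon (log axis) in each of the 8 libraries, ordered by the mean from Pcna (83.2) on the left to Brca1 (0.516) on the right. The HET and WT points overlap in most genes, and the points spread more widely among the faint genes on the right.

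Other genes of the same pathway behaved less evenly. Of 45 other replication and S phase genes, all tested, 32 had a positive and 13 a negative log2 fold change, with a median of 0.21. At an unadjusted p under 0.05, 7 were higher and 3 lower in HET (3.34% and 3.88% of tested genes), and 0 passed the adjusted threshold by edgeR. Without WT replicate 4 these counts were 4 and 2, and without HET replicate 1 they were 11 and 0, with medians of 0.15 and 0.25. The lowest p-values were those of Cdca7, a chromatin factor of S phase, with 0.58 ± 0.21 (SE), and Mybl2, a transcription factor of the cell cycle, with 1.66 ± 0.56 (SE). Genes of the next stage of the cycle gave a larger median than the members. Of 39 G2/M and mitosis genes, 36 were positive, 0 passed the adjusted threshold, and the median was 0.74. An unadjusted p under 0.05 in favour of HET was found for 13 (3.34% of tested genes). Without WT replicate 4, 35 were positive, 9 had such a p and the median was 0.54, and without HET replicate 1 these values were 37, 13 and 0.83. Ccnb2, a mitotic cyclin, had a log2 fold change of 1.53 ± 0.26 (SE, edgeR adjusted p = 0.0870) and Nuf2, a kinetochore protein, 2.23 ± 0.53.

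The order of the libraries in the mitotic score was not that of the S phase score. The G2/M score was 0.30, 0.16, 0.51 and 0.95 in HET replicates 1 to 4 and 0.09, −0.10, −0.19 and −1.72 in WT replicates 1 to 4. All HET libraries lay above all WT libraries, WT replicate 4 was far below the rest, and HET replicate 1 was not low as it was for the S phase genes. WT replicate 4 was the lowest of all 8 libraries for 32 of the 39 mitotic genes, against 21 of the 56 members. Whether the low mitotic genes of that library took part in the S phase difference was not tested, and without it the median log2 fold change of the members was 0.29.

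**Figure D5:**
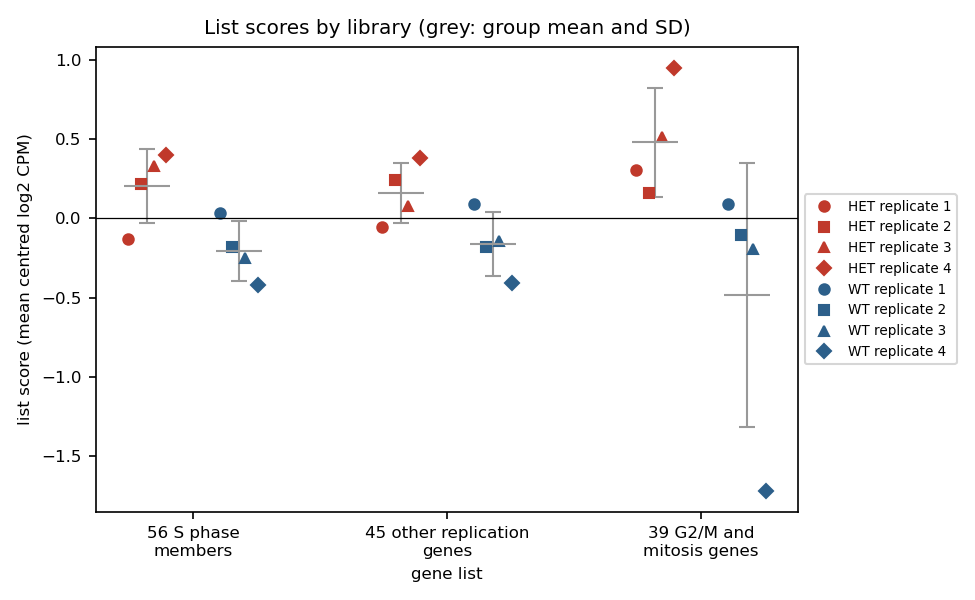
Score of each library (mean centred log2 CPM) for the 56 members, 45 other replication genes and 39 G2/M and mitosis genes, with the group mean and SD (n = 4) in grey. For the members HET replicate 1 (−0.13) lies below WT replicate 1 (0.04), and for the mitotic genes WT replicate 4 lies at −1.72.

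Markers of the sorted cells and of other cells were read beside the S phase genes. The 12 B cell markers were present in every library, at 22828 to 24047 CPM in sum in HET and 26089 to 29092 CPM in WT. All 12 had a negative log2 fold change (median −0.23). Of these, 9 had an unadjusted p under 0.05 (3.88% of tested genes were lower at that p). By edgeR 0 passed the adjusted threshold (lowest adjusted p = 0.0770, Cd74). In 6 of the 12 every HET library lay below every WT library (2.62% of tested genes). Ighd, the transcript of the marker used for the gate, was at 1460, 1655, 1840 and 1377 CPM in HET and 1795, 1871, 1924 and 2049 CPM in WT. Only HET replicate 3 reached the WT range. Of 7 germinal center markers tested, 6 were positive, with a median of 1.08. At an unadjusted p under 0.05, 4 were higher and 1 lower in HET (3.34% and 3.88% of tested genes), and 0 passed the adjusted threshold by edgeR. Fas, a death receptor of germinal center B cells, had a log2 fold change of 1.08 ± 0.32 (SE). The marker lower in HET, named after its values were seen, was Bcl6, the master regulator of the germinal center program. Bcl6 was at 35.6 to 58.9 CPM in HET and 45.3 to 81.0 CPM in WT (log2 fold change −0.50). Without WT replicate 4, 3 of these markers were higher (2.90% of tested genes) and 0 lower at that p. T cell markers summed to 588 to 940 CPM in HET and 483 to 825 CPM in WT, with 15 of 16 tested positive, a median of 0.46 and none at an unadjusted p under 0.05. Myeloid markers summed to 462 to 701 CPM in HET and 364 to 732 CPM in WT, with 4 of 8 tested positive. Of these 8, 1 (Csf1r, log2 fold change −0.93) was lower in HET at an unadjusted p under 0.05 by edgeR (3.88% of tested genes), and 0 were higher. WT replicate 2, with the highest of these sums, had the myeloid transcript Lyz2 at 399 CPM, against 0 to 28.5 CPM in the other libraries. Lyz2 is named after its values were seen. Antibody-secreting cell markers summed to 3053 CPM in HET replicate 1, 888 to 1394 CPM in the other HET libraries and 768 to 1302 CPM in WT, with 12 of 14 tested positive and 7 of 14 without HET replicate 1. None of the marker genes in these lists was at 0 in all 8 libraries. The part of these other cells in the S phase difference was not tested. HET replicate 1, the library with the most antibody-secreting markers, was the HET library with the lowest S phase score. HET replicate 4, with the next highest sum (1394 CPM), had the highest score (0.40). WT replicate 4, the highest WT library in that sum (1302 CPM), had the lowest score of all (−0.42). Of the 3053 CPM in HET replicate 1, 1576 came from Jchain, a gene named after its values were seen.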

How the data were processed

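Counts and TPM of 8 libraries were used. Per the labels and the study's methods, the authors prepared SMART-Seq2 libraries without molecular identifiers, aligned reads to GRCm38 (mm10 in the labels) with Hisat2 2.2.1 and counted them per gene with HTSeq. Not given in the sources used here are the gene annotation, whether counting used strand, and how multi-mapped reads were treated. The deposited counts are whole numbers for 24259 symbols, and the deposited TPM table holds 24232. The deposited TPM values followed the whole gene span, introns included (Pearson r of log2 lengths 0.964 across 9199 genes, against 0.671 for summed exon length, genes not being independent replicates). Levels between genes, for which TPM had been planned, are therefore CPM per kilobase of exon (GENCODE M21).

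HET and WT were compared with edgeR 4.0.16 in R 4.3.3 (filterByExpr, TMM, robust quasi-likelihood F-test, Benjamini-Hochberg over 12744 genes, threshold 0.05). The standard error of a log2 fold change was obtained by dividing it by √F. Scores used a prior count of 2. On simulated data for 12744 genes the fit recovered 43% of 2-fold and 78% of 4-fold changes. The common biological coefficient of variation was 0.391. Intervals of counting error are not given, and 3 counts set the floor. Repeats of a group differed by a chi-square per degree of freedom of 12.6 to 29.1, so none was a duplicate.

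The members and comparison lists were chosen with earlier results of these data known. Library values were given for the 2 members of each role with the lowest p (both E2F factors), for other members without overlap at an unadjusted p under 0.05 and for the most negative fold change. From each comparison list the 2 genes with the lowest p could be named. Alternatives were DESeq2 1.42.0, limma-voom with quality weights and limma-trend on log2(TPM + 1) or log2(TPM + 0.1) (limma 3.58.1), a mean TPM of at least 1, RLE factors, library size alone, no filter, genes averaging 50 or more counts, a replicate block, no immunoglobulin genes, an adjusted p under 0.1, each library left out, and, chosen after seeing the data, HET replicate 1 and WT replicate 4 left out together.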

Additional observations from a re-analysis of the deposited data

Results flagged for a closer look

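In groups of 4 libraries, a value was listed when its gap to the nearest of the others exceeded 0.829 of the group's range. This held for 10 of 156 groups examined, and chance gives about 1 in 20. The members were Orc1 in WT replicate 2 (0.813 CPM against 2.65 to 2.71 in the other WT libraries), Mcm5 in WT replicate 1 (142 CPM against 75.8 to 85.1) and Rfc1 in WT replicate 2 (75.0 CPM against 105 to 111). In HET they were Cdc45 in replicate 1 (18.8 CPM against 38.1 to 39.3), Rpa1 in replicate 1 (80.1 CPM against 121 to 126), Pole2 in replicate 3 (14.4 CPM against 6.67 to 7.12) and Dtl in replicate 4 (37.6 CPM against 19.5 to 22.2). HET replicate 1 was also low in the score of the helicase activation genes (−0.28 against 0.51 to 0.63). WT replicate 4 was low in the score of the G2/M and mitosis genes (−1.72 against −0.19 to 0.09). The immunoglobulin share of HET replicate 1 was 4.46% of counts, against 2.07% to 2.22% in the other HET libraries. Why these libraries stood apart was not tested.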

How the results depend on the processing

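The sign of the median log2 fold change of the members and of the score difference was positive under every alternative run. The count of members called, 0 by edgeR, was 4 by DESeq2 (77 of all genes called in either direction) and 3 without a filter (Pclaf, Dut and Gmnn, among 38 of 24259 genes), and it ranged from 0 to 2 when single libraries were left out. The 2 calls, Pclaf and Rrm2, appeared without WT replicate 1, where 6 of 12954 genes were called. The 14 members higher at an unadjusted p under 0.05 became 8 on log2(TPM + 0.1) (2.85% of tested genes). They became 9 on log2(TPM + 1), with or without the filter at a mean TPM of at least 1 (3.01% and 2.91% of tested genes). They ranged from 7 (without HET replicate 4) to 22 (without HET replicate 1). The 6 members without overlap became 3 (1.27% of tested genes) with that TPM filter, which kept 51 members. They became 22 without HET replicate 1 and WT replicate 4 together (6.47% of tested genes), an alternative chosen after seeing the data. With single libraries left out they ranged from 6 to 20 (without HET replicate 1, 4.58% of tested genes), with 10 without WT replicate 1 (4.37%), while the share with all libraries was 1.99%. With single libraries left out, the score difference ranged from 0.34 to 0.52 and the median from 0.27 to 0.42. The lowest score differences were 0.296 on log2(TPM + 1) and 0.304 with the filter at a mean TPM of at least 1. The medians there were 0.273 and 0.275. Of the 19 members with library values chosen by rule, E2f1 alone reversed its sign. E2f1, −0.23 in edgeR, was 0.012 with a replicate block, ranged from −0.53 (without WT replicate 2) to 0.26 with single libraries left out, was 0.26 without WT replicate 4 and 0.14 without HET replicate 1 and WT replicate 4. The cause of these differences between settings was not tested. Deviations of HET and WT libraries with the same replicate number had correlations of −0.05 to 0.01, and those with different numbers −0.07 to 0.07. These correlations show no pairing by number and cannot exclude one. With the replicate block, 0 members were called, 16 were higher at an unadjusted p under 0.05 (3.64% of tested genes) and the median was 0.34. Depth limits Orc1 most, with 8 to 52 counts per library.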

Other observations

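The deposited TPM values order the members differently from CPM per kilobase of exon, since they follow the gene span. Prim2, with a span of 215986 bases and 5938 bases of exon, was 45th of the 56 members by CPM per kilobase of exon (3.70) and 56th by deposited TPM (mean 0.551). Tipin, with a span of 23844 bases and 1869 bases of exon, was 6th by the first measure (33.8) and 29th by the second (mean 12.3). Mcm7, whose span of 7840 bases holds 4426 bases of exon, was 14th by the first (26.8) and 2nd by the second (mean 117). Pcna was highest by both. The length is the same in every library, so fold changes computed from the counts do not depend on it.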
